A study of Mus musculus with 15 samples.

Results

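The regions described here are the 4285 open H3K27ac peaks that lost acetylation after ultraviolet irradiation, out of 40215 open peaks (10.7%) and of 90682 H3K27ac peaks in all. A peak was called open where it overlapped a FAIRE peak by at least 1 bp. It was called losing where the log2 ratio of its H3K27ac reads, irradiated over untreated with 16 reads added to each, was −1 or less. The members were thus chosen by the H3K27ac reads of both conditions, and every H3K27ac value of a losing peak given here is a description and not a test. The other 35930 open peaks serve as the comparison, and 5371 of them (13.4% of open peaks) gained acetylation by a log2 ratio of 1 or more.

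The cells were NIH3T3, an established line of mouse embryonic fibroblasts. The irradiated cells had their medium removed, were washed, were exposed to UV-C (254 nm, 80 J/m2) and were kept for 6 h in fresh medium with DMSO, whereas the untreated cells received no irradiation and the labels do not say whether they were washed, re-fed or given DMSO. H3K27ac ChIP-seq and FAIRE-seq each had 2 irradiated and 2 untreated samples, which the chromatin tables give as 1 pooled read count per condition, beside 1 input DNA sample. RNA-seq had 3 irradiated and 3 untreated libraries. Differences between the chromatin pools therefore have no replicate check and no test, and intervals of shares, medians and read ratios cover counting error or the spread over peaks only.

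Acetylation of lysine 27 of histone H3 is placed by the acetyltransferases p300 and CBP and marks active promoters and enhancers. FAIRE recovers DNA that is poorly crosslinked to protein, so it reads out nucleosome-depleted stretches. At an active regulatory element the acetylated nucleosomes commonly sit on both sides of such a stretch, where transcription factors bind, and one open site can therefore lie between a pair of H3K27ac peaks.

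Over all H3K27ac peaks the pools held 17852404 irradiated and 15525272 untreated reads, and over all FAIRE peaks 1667365 irradiated and 2691671 untreated reads. By the input scales in the deposited promoter tables, the depth of the irradiated pool was 1.01 times that of the untreated pool for H3K27ac and 0.803 times for FAIRE, so that FAIRE ratios carry a depth offset of −0.32 on the log2 scale. All 9 fibroblast markers examined were at 5 CPM or more in the RNA, summing to 21341 to 38444 CPM in irradiated and 16282 to 22268 CPM in untreated libraries. The markers of epithelial, endothelial, leukocyte, skeletal muscle and neuronal cells summed to at most 15.0 CPM per list in irradiated and 11.1 CPM in untreated libraries.

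The losing peaks together held 520974 H3K27ac reads in irradiated cells and 1536298 in untreated cells, a ratio of 0.339. A losing peak held a median of 75 reads (middle 50% of peaks 35 to 153) in irradiated cells and 241 reads (125 to 464) in untreated cells. The median log2 ratio was −1.34 and the lowest −3.59. The 5 members nearest the threshold were all at −1 and held 14 to 301 irradiated and 44 to 618 untreated reads, and the 5 open peaks just outside it lay between −0.997 and −0.996. Within 0.05 of the threshold lay 424 members and 383 open peaks outside. The exact 95% interval of the read ratio, which covers counting error only, lay below 0.5 in 2957 members (69.0%). The rule already puts the raw read ratio of every member below 0.5, and the interval does not allow for that choice. This count is therefore no test of the loss.

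**Figure D1:**
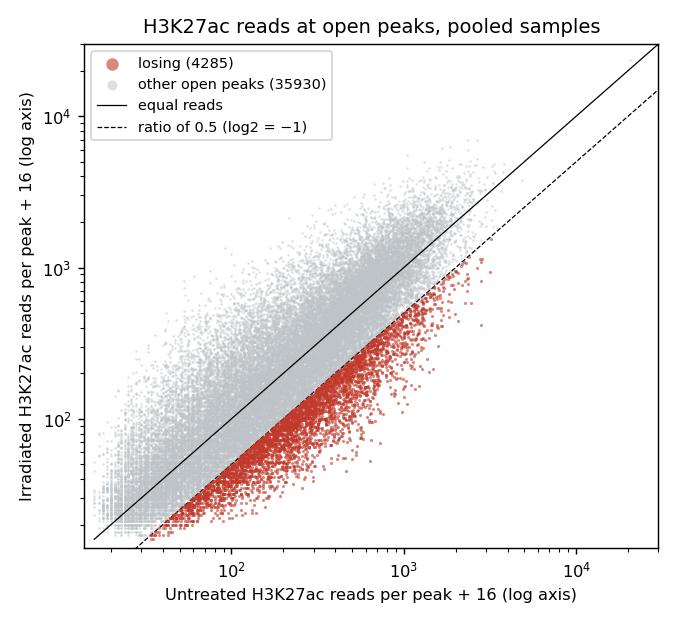
H3K27ac reads per open peak in pooled irradiated (vertical) and untreated (horizontal) samples, with 16 added, on log axes. The 4285 losing peaks (red) lie on or below the dashed line by the rule that chose them and span both weakly and strongly acetylated peaks, and the 35930 other open peaks are grey.

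The members with the lowest ratios kept few of their H3K27ac reads. The lowest ratio was at chr17:81290197-81291026 (mm9), with 37 irradiated and 624 untreated H3K27ac reads, a ratio of 0.0593 (95% interval 0.0414 to 0.0826). FAIRE reads over the same element numbered 36 in irradiated and 233 in untreated cells. The peaks chr1:95081037-95081869, with 53 irradiated and 713 untreated H3K27ac reads, and chr9:52873453-52874561, with 29 irradiated and 446 untreated reads, followed. At chr17:50006071-50006674 there were 38 irradiated and 484 untreated reads, and at chr12:111036156-111037075 there were 42 irradiated and 515 untreated reads. At all 5 of these peaks FAIRE reads were lower too, at log2 ratios of −2.49 to −1.79.

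The 5 losing peaks with the most untreated reads were 1815 to 2686 bp long, and their log2 H3K27ac ratios ran from −2.75 to −1.07. The peak with the most untreated reads, chr6:83085902-83088290, held 1519 irradiated and 3197 untreated reads, a ratio of 0.475 (0.447 to 0.505). The next 2 were chr6:83958310-83960640, with 916 irradiated and 3131 untreated reads, and chr6:134876786-134878599, with 1125 irradiated and 2819 untreated reads. At chr11:94742166-94744725 only 403 irradiated reads remained against 2797 untreated reads, a ratio of 0.144 (0.129 to 0.160). The last of these, chr6:127825697-127828381, held 1064 irradiated and 2783 untreated reads. Of these 5 peaks 4 lay on chromosome 6, where the share of open peaks that lost acetylation was the highest of all chromosomes (333 of 2413, 13.8%, 95% Wilson interval 12.5% to 15.2%). The share was lowest, among chromosomes with losing peaks, on X (50 of 618, 8.09%, 6.19% to 10.5%). Median input reads per kb of open peaks were 40.6 on chromosome 6 and 16.7 on X, and the part of copy number in these shares was not tested.

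By the rule with 16 reads added, the losing peaks resembled the other open peaks in median length. Their median length was 809 bp (95% interval 789 to 825, range 130 to 2903), against 810 bp (802 to 818) for the other open peaks. With open peaks split by length into 5 classes of about equal number, 7.46% of the shortest lost acetylation, against 12.9%, 12.6%, 10.6% and 9.75% in the next classes up to the longest. With 1 read added in place of 16, the median length of losing peaks was 675 bp, against 810 bp over all open peaks. The likeness in length thus depended on the number of added reads. Of the losing peaks 90.2% overlapped a single FAIRE peak, against 87.4% of the other open peaks. The midpoint of the FAIRE peak lay inside the H3K27ac peak for 52.1% of overlaps with losing and 53.3% of overlaps with other open peaks.

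By the rule with 16 reads added, starting acetylation per length was higher at losing than at other open peaks. Untreated H3K27ac stood at a median of 300 reads per kb (95% interval 292 to 309) at losing peaks, against 215 (212 to 218) at other open peaks and 125 (121 to 130) at gaining peaks. In irradiated cells the medians were 91.2 reads per kb at losing peaks and 252 at other open peaks. The deposited log2 enrichment over input had a median of 1.31 in irradiated and 2.83 in untreated cells at losing peaks, and 2.60 and 2.36 at other open peaks. Because the untreated reads entered the rule, a higher starting level is in part built into the choice. With 1 read added in place of 16, the median at losing peaks was 241 reads per kb, against 227 over all open peaks. With open peaks split into 5 classes by untreated reads per kb, 19 of 8043 in the lowest class lost acetylation (0.236%), where the 16 added reads leave little room to pass the threshold. In the other 4 classes the share was between 10.4% and 15.6%, highest in the middle class and lower again above it. Input reads per kb, which the rule did not use, had medians of 35.4 at losing and 34.0 at other open peaks.

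FAIRE reads entered the choice of members through the required overlap with a FAIRE peak, called on merged samples of which the untreated held more FAIRE reads, and the other open peaks met the same requirement. At most losing peaks the irradiated FAIRE reads were lower than the untreated ones. A losing peak had a median of 15 FAIRE reads (middle 50% 9 to 26) in irradiated and 46 (26 to 81) in untreated cells, whereas other open peaks had 25 (14 to 44) in irradiated and 40 (21 to 75) in untreated cells. The median log2 FAIRE ratio was −0.93 (95% interval over peaks −0.94 to −0.91) at losing, −0.46 (−0.47 to −0.46) at other open and −0.09 (−0.10 to −0.07) at gaining peaks. Scaled for depth it was −0.76, −0.27 and 0.12 in the same 3 classes. A FAIRE ratio of −1 or less was reached by 1891 losing peaks (44.1%, 42.7% to 45.6%), against 8.61% of other open peaks and 12.4% of all open peaks. Scaled for depth the shares were 31.0% of losing, 3.61% of other and 6.53% of all open peaks. A FAIRE ratio of 0 or more was found at 46 losing peaks (1.07%), against 14.1% of other open peaks and 12.7% of all open peaks.

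Counted once per FAIRE peak, the 4302 FAIRE peaks under losing peaks held 78447 irradiated and 224694 untreated reads, a ratio of 0.349, or 0.435 scaled for depth. Under other open peaks the ratio was 0.638, or 0.794 scaled for depth. Chromosomes M and Y, which held no losing peak, were left out of these sums. Untreated FAIRE was somewhat higher at losing peaks, with a median of 128 reads per kb (126 to 131) against 109 (109 to 110) at other open peaks. With open peaks split into 10 classes by untreated FAIRE reads per kb, 2.93% of the lowest class lost acetylation, 13.7% of the eighth, where the share was highest, and 12.4% of the top class.

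**Figure D2:**
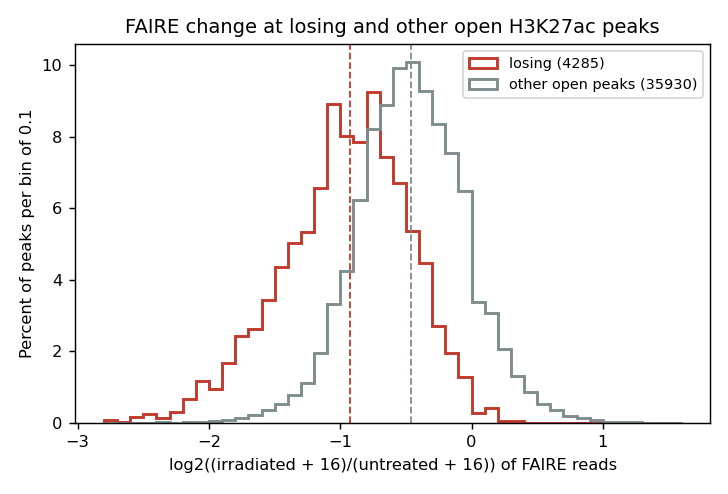
Distribution of the log2 FAIRE read ratio, irradiated over untreated with 16 reads added and no depth scaling, in percent of peaks per bin. Dashed lines mark the medians, −0.93 at losing peaks (red) and −0.46 at other open peaks (grey), and the distributions overlap.

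The gap between losing and other open peaks held at every level of starting FAIRE. In 4 classes of untreated FAIRE reads, low to high, the median log2 FAIRE ratio at losing peaks was −0.47, −0.78, −1.05 and −1.34. At other open peaks it was −0.15, −0.40, −0.56 and −0.75 in the same classes. Added reads pull the ratio of weak sites toward 0, so the ratios of the lowest class, with at most 21 untreated reads, understate their change. In the 5 classes of untreated H3K27ac per kb the losing peaks lay below the others in each, by 0.23 on the log2 scale in the lowest, which held 19 losing peaks, and by 0.48 in the highest.

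FAIRE ratios were lower where more acetylation was lost. Among losing peaks with an H3K27ac ratio from −1.5 to −1 the median FAIRE ratio was −0.82, and from −2 to −1.5 it was −1.03. It was −1.34 in the 369 peaks between −2.5 and −2, and −1.51 in the 91 peaks at −2.5 or less, 90.1% of which had a FAIRE ratio of −1 or less. Over the 4285 losing peaks Pearson's r of the H3K27ac and FAIRE ratios was 0.38 and Spearman's rho 0.34. With 1 peak per shared FAIRE site the values were 0.36 and 0.32 over 3848 peaks. All points share the same 4 pools, and peaks beside one FAIRE site share its reads. The classes of deeper loss also started with more reads. Median untreated FAIRE reads were 42, 49, 60 and 81 from the class next to the threshold to the class of deepest loss. In the same order median untreated H3K27ac reads were 207, 274, 337 and 525. Added reads make ratios at weak sites smaller in size in each assay. Their part in this trend and in the correlations was not tested.

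**Figure D3:**
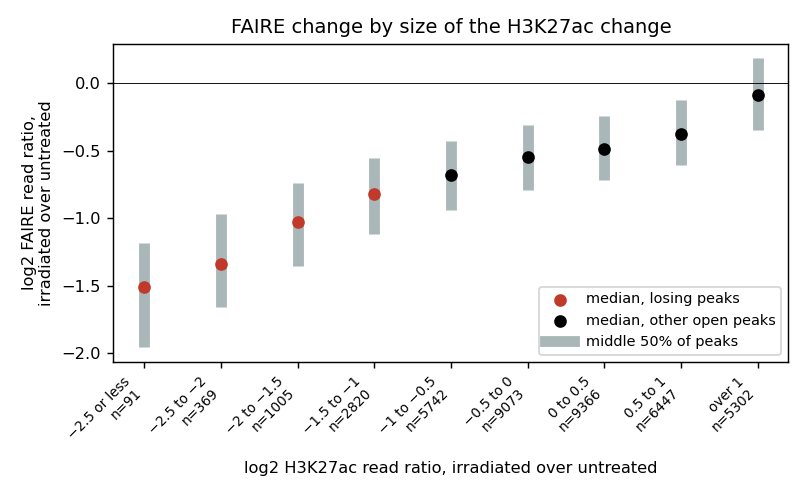
Median log2 FAIRE read ratio (points) and the middle 50% of peaks (bars) in classes of the log2 H3K27ac read ratio, irradiated over untreated, not scaled for depth. Losing peaks (red) run from −1.51 in the class of deepest loss to −0.82 next to the threshold, and open peaks with an H3K27ac ratio over 1 lie at −0.08. Median untreated FAIRE reads were 81 in the class of deepest loss and 42 next to the threshold.

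FAIRE ratios of single losing peaks ranged widely. Among the 1212 members with at least 100 FAIRE reads in the pools together, the lowest FAIRE ratio was at chr2:131532699-131533250, with 18 irradiated and 214 untreated FAIRE reads, a ratio of 0.0841 (0.0489 to 0.136). Its H3K27ac reads were 66 in irradiated and 562 in untreated cells. The next lowest were a pair of neighbours on chromosome 15. At chr15:8755716-8756876 there were 22 irradiated and 239 untreated FAIRE reads and at chr15:8765859-8768212 21 irradiated and 225 untreated FAIRE reads. At the other end chr15:98763726-98764329 kept its FAIRE signal within counting error, with 56 irradiated and 59 untreated FAIRE reads (ratio 0.949, 0.647 to 1.39). Its H3K27ac reads were 163 in irradiated and 463 in untreated cells. The same held at chr17:84260711-84262302, with 75 irradiated and 80 untreated FAIRE reads beside 920 irradiated and 1988 untreated H3K27ac reads, and at chr1:75555341-75556184, with 58 irradiated and 66 untreated FAIRE reads.

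Facing a losing flank across one open site, a peak lost acetylation more often than open peaks at large, though sites with loss at 1 flank outnumbered those with loss at both. A total of 7584 FAIRE peaks each touched exactly 2 H3K27ac peaks. Both flanks lost acetylation at 432 of them, 1 flank at 802 and none at 6350. Median gaps between the 2 H3K27ac peaks were 150.5, 147.5 and 149 bp in the same order. The median FAIRE ratio was −1.20 (−1.26 to −1.14) where both flanks lost, −0.89 (−0.93 to −0.86) where 1 lost and −0.53 (−0.54 to −0.52) where none did. Of the 1666 losing flanks, 864 (51.9%) faced another losing flank, where a site with loss on both sides counts 2 flanks. Among all open peaks 10.7% lost. Where only 1 flank lost, the other had a median H3K27ac ratio of −0.53 (−0.57 to −0.49) and was below 0 at 670 sites (83.5%). It gained by 1 or more at 4 sites. For comparison, the 35930 other open peaks had a median H3K27ac ratio of 0.17 (0.16 to 0.18), so most of them lay above 0.

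Losing peaks also lay near each other along the chromosomes. The nearest open peak also lost acetylation for 1670 losing peaks (39.0%, 37.5% to 40.4%), against 7.66% of the other open peaks. When neighbours sharing a FAIRE peak were passed over, the shares were 31.2% (29.8% to 32.6%) of losing and 8.51% of other open peaks. The share was smaller at longer distances. It was 44.0% of losing and 7.15% of other open peaks at gaps up to 2 kb, and 25.7% and 8.35% at gaps of 12.5 to 50 kb. In the 2 classes beyond 50 kb it was 15.6% and 14.5% of losing peaks, with intervals that reach down to 10.9% and 8.28%, against 7.21% and 5.72% of other open peaks.

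**Figure D4:**
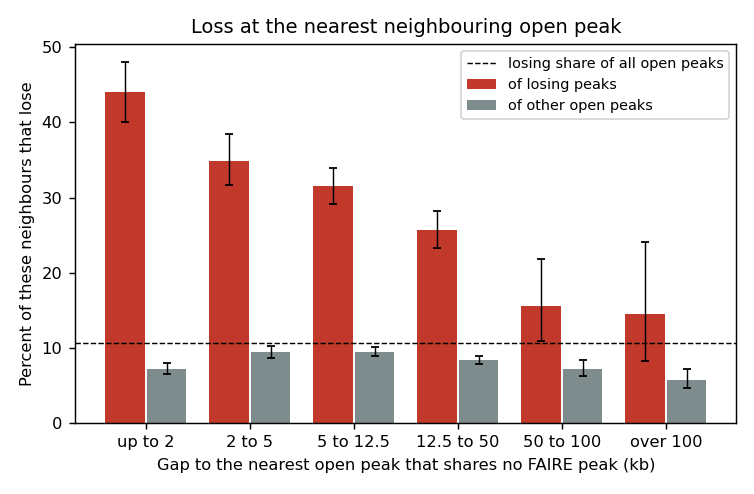
Percent of nearest neighbouring open peaks that lost acetylation, by gap in kb, for losing peaks (red, left bar) and other open peaks (grey, right bar), leaving out neighbours that share a FAIRE peak. Error bars are 95% Wilson intervals over peaks, and the dashed line is the losing share of all open peaks, 10.7%. The red bars decline from 44.0% to 14.5% with distance and the grey bars stay between 5.72% and 9.49%.

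The H3K27ac peaks that had no FAIRE peak, 50467 in number, lost acetylation by the same ratio in 4741 cases (9.39%). Those whose nearest open peak was a losing one within 2 kb had a median H3K27ac ratio of −1.07 (−1.10 to −1.03, n = 2080), and 55.0% of them were at −1 or less. Beside other open peaks within the same distance the median was 0.05 (n = 15978), and 7.59% were at −1 or less. From 2 to 12.5 kb the median was −0.58 beside losing and 0.04 beside other open peaks. From 12.5 to 50 kb it was −0.33 and 0.11, and beyond 50 kb −0.06 (−0.16 to 0.05) and 0.24. The H3K27ac ratio was thus also low at peaks beside the losing ones, and less so with distance.

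Joined where they lay at most 12.5 kb apart, the losing peaks formed 3221 runs. Of these, 2479 held a single peak and 742 held 2 or more, with 1806 members (42.1%). Counting peaks that share a FAIRE site once, 477 runs held 2 or more separate sites, with 1274 members (29.7%). There were 22 runs of 5 or more peaks. The largest was on chromosome 2 (chr2:125726266-125775117), where 9 of 10 open peaks over 48852 bp lost acetylation. Its 9 losing peaks held 740 irradiated and 3134 untreated H3K27ac reads, a ratio of 0.236, and its FAIRE peaks held 93 irradiated and 378 untreated reads. The steepest losses in it were at the peaks starting 21736 bp and 31663 bp into the run, with 64 irradiated and 550 untreated reads and with 80 irradiated and 626 untreated reads. The open peak that did not meet the rule held 67 irradiated and 142 untreated reads, a log2 ratio of −0.93.

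The second run, chr17:84372345-84390694, held 8 losing peaks at 4 FAIRE sites within 18350 bp, and both flanks of each site lost. Together they held 1202 irradiated and 4905 untreated H3K27ac reads, a ratio of 0.245. Its FAIRE sites held 35, 12, 31 and 31 irradiated reads and 43, 111, 207 and 144 untreated reads in order along the chromosome. The first site thus kept most of its FAIRE reads while its flanks lost acetylation at log2 ratios of −1.32 and −1.35. The third run, chr10:43725457-43764283, held 7 losing peaks with 764 irradiated and 2806 untreated H3K27ac reads, a ratio of 0.272, and 91 irradiated and 408 untreated FAIRE reads. The strongest peak of this run held 330 irradiated and 1043 untreated H3K27ac reads, and FAIRE reads there were 20 in irradiated and 165 in untreated cells.

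**Figure D5:**
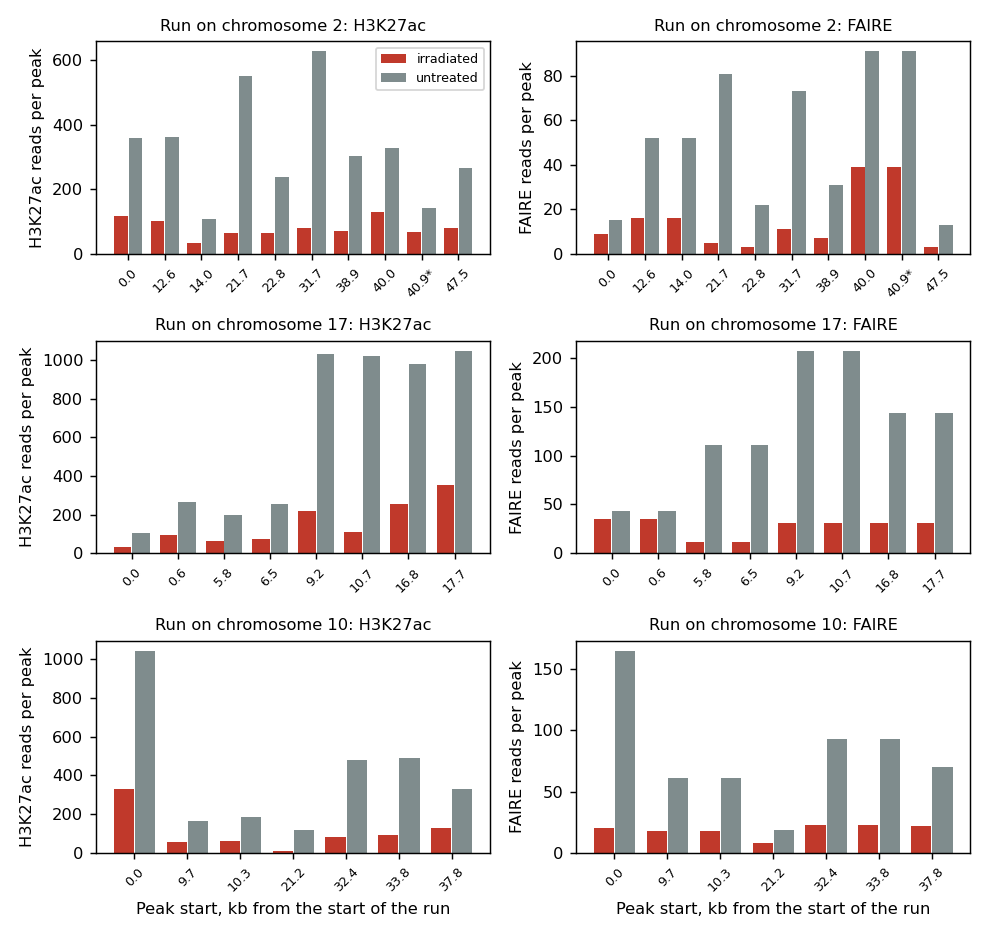
H3K27ac (left) and FAIRE (right) reads per open peak in the 3 runs with the most losing peaks, irradiated (red, left bar) and untreated (grey, right bar), each pool unscaled, in order of the peak start in kb from the start of the run. An asterisk marks the 1 open peak that did not meet the rule, and FAIRE bars repeat where neighbouring peaks share a FAIRE site. Irradiated bars are lower at every peak shown.

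The files do not pair peaks with genes, so transcripts were read through the deposited promoter windows of 1000 bp, which are named by gene. Of 21881 windows 741 (3.39%) met the same H3K27ac ratio of −1 or less. These losing promoter windows are not the peaks themselves, and how many of them overlap a losing peak was not determined. Their median log2 FAIRE ratio was −0.63, against −0.31 for the other windows. Among the 627 of their genes with enough RNA counts to test, 121 were lower (19.3%) and 49 higher (7.82%) after irradiation by the quasi-likelihood test of edgeR (adjusted p under 0.05). Of all 14925 genes tested 12.4% were lower and 7.70% were higher. These genes were not matched to the losing windows in starting acetylation or expression, so the 2 shares are not like for like. The median log2 fold change was −0.01 for the losing promoter windows and −0.01 for all tested genes. The RNA came from whole cultures, so fewer cells in a state and less RNA per cell cannot be told apart. The split depended on single libraries, for all genes too. Without untreated replicate 2, 80 of these genes were lower (12.6%) and 85 higher (13.4%), against 7.49% and 12.5% of all tested genes. Without irradiated replicate 1, 80 were higher (12.6%), against 7.62% of all tested genes, and without irradiated replicate 3, 20 were higher (3.14%), against 3.75%. With library totals alone 27.8% of these genes were lower, against 25.1% of all tested genes. The RNA libraries held 14211528 to 22032701 counts. Irradiated replicate 1 stood apart, with 17607 genes detected against 18350 to 18787 in the other libraries. The labels do not say whether the libraries came from separate cultures, so these p-values measure only the spread between libraries.

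The lowest mRNAs with a losing promoter window included 5 replication-dependent histone genes, Hist1h3g, Hist1h3h, Hist1h2be, Hist1h2bh and Hist1h1a. Hist1h3g was at 1.67, 2.96 and 1.91 CPM in irradiated and 21.9, 18.9 and 18.7 CPM in untreated libraries, a log2 fold change of −3.19 ± 0.23 (SE, edgeR adjusted p = 8.42e-08). Its promoter window held 106 irradiated and 301 untreated H3K27ac reads. Histone genes have near-identical copies, so values of single members are uncertain. Cbx2, which encodes a Polycomb protein, was at 5.13 ± 0.385 CPM in irradiated and 29.9 ± 1.54 CPM in untreated libraries (SD, n = 3 each), with edgeR adjusted p = 7.49e-08. Its window held 103 irradiated and 293 untreated H3K27ac reads. The groups did not overlap for either gene, which the rule for naming genes required. The others were the F-box gene Fbxo31 (log2 fold change −2.49), the zinc finger gene Zfp637 (−2.20), the bHLH transcription factor gene Atoh8 (−2.07) and Rgs4, a regulator of G-protein signalling (−2.05). At the window of Atoh8 H3K27ac reads were 103 in irradiated and 410 in untreated cells, whereas FAIRE reads were 39 in irradiated and 38 in untreated cells.

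The highest mRNAs with a losing promoter window rose by about 1 on the log2 scale. Fat4, which encodes an atypical cadherin, was at 201 ± 29.6 CPM in irradiated and 95.2 ± 10.6 CPM in untreated libraries (SD, n = 3 each, log2 fold change 1.08 ± 0.20, edgeR adjusted p = 0.000837). Its window held 163 irradiated and 522 untreated H3K27ac reads, but 28 irradiated and 27 untreated FAIRE reads. The ribosomal protein genes Rpl39 (1.07), Rpl36a (1.04) and Rps16 (0.99) and the mitochondrial one Mrpl23 (0.93) were also among the 10 highest. With them stood Utp14b (1.06), the complex I subunit gene Ndufa13 (1.01), Rrbp1 (0.98), the thymosin gene Tmsb10 (0.93) and Phpt1 (0.91), whose call was lost with library totals alone. Ribosomal protein genes have many processed copies, and their single values are uncertain. The 3 windows that lost the most reads were those of the microRNA genes Mir688, with 663 irradiated and 1511 untreated reads, and Mir199b, with 354 irradiated and 1113 untreated reads, and that of the desaturase gene Scd2. Scd2 had 273 irradiated and 1022 untreated H3K27ac reads, whereas its mRNA was at 1210 ± 164 CPM in irradiated and 1059 ± 239 CPM in untreated libraries (SD, n = 3 each, edgeR adjusted p = 0.706).

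Counts of losing promoter windows in lists of genes stand beside the 3.39% of all windows, which is a low yardstick for active genes. Of the 14925 genes tested in RNA 627 had a losing window, whereas 114 of the 6956 windows without an RNA test lost. The lists were not matched to other windows in starting acetylation, so whether any list is enriched was not tested. For 34 immediate early genes, 29 p53 targets and 23 Hippo and YAP targets, the median log2 H3K27ac ratios were 0.75, 1.27 and 0.41. The median over all windows was not computed. None of these windows met the ratio of −1 or less, and lists of this size would hold few at 3.39%. Of 40 extracellular matrix genes 4 met it, at a list median of −0.48: the collagen genes Col6a2 and Col16a1 and the small proteoglycan genes Bgn and Dcn. None of the 4 passed the RNA test, and Bgn was at 2052 ± 762 CPM in irradiated and 1338 ± 258 CPM in untreated libraries (SD, n = 3 each, edgeR adjusted p = 0.0958). Bgn did pass in 3 of the 11 alternatives, with an adjusted p of 0.0247 without untreated replicate 1, while it was 0.58 without irradiated replicate 1. Of 48 genes in the mesenchymal transcription factor list 4 met the ratio: Cbx2, Meox1 and the nuclear factor I genes Nfib and Nfic. Of these only Cbx2, a Polycomb gene placed in this list, passed the RNA test. Meox1 was near the floor, with 6 irradiated and 31 untreated H3K27ac reads. Its RNA was at 1.04 CPM in irradiated and 1.34 CPM in untreated libraries. The windows of Ptch1, the Hedgehog receptor gene, and of the Wnt ligand gene Wnt5a were the 2 of 37 in the Hedgehog and Wnt list, and those of the ephrin gene Efna1 and the semaphorin gene Sema4c the 2 of 39 in the guidance list. These 4 genes, named after their values were seen, were lower in RNA, at log2 fold changes of −0.77, −1.06, −1.38 and −1.19 (edgeR adjusted p = 0.0104, 0.00173, 0.000171 and 6.96e-05). Of the other lists, the actin and adhesion list had 2 of 36 (Myl9 and Lmod1), the TGF-beta and BMP list 2 of 33 (Ltbp3 and Grem1), the growth factor list 1 of 31 (Igf2) and the cell cycle list 1 of 40 (Cdc25b). In RNA Ltbp3 was higher at 0.84 and Igf2 at 0.72 on the log2 scale (edgeR adjusted p = 0.0245 and 0.0244), and Lmod1 was lower at −1.06 and Cdc25b at −1.24 (adjusted p = 0.00835 and 0.000441). The calls of Ltbp3 and Igf2 were lost in 4 and 3 of the alternatives and that of Lmod1 in 1, with adjusted p up to 0.0825, 0.205 and 0.0538. Myl9 and Grem1 did not pass. The call of Ptch1 was lost in 3 of the alternatives (adjusted p up to 0.0695, without untreated replicate 2). Median log2 H3K27ac ratios were −0.41 in the Hedgehog and Wnt list, −0.23 in the guidance list and −0.16 in the mesenchymal list. They were −0.07 in the growth factor list and 0.04 in the cell cycle list. In the actin and adhesion list the median was 0.12, and in the TGF-beta and BMP list 0.23.

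Promoter sequences of RefSeq (GRCm38.p6, 300 bases around the gene start) were matched by symbol for 485 losing windows. They are shown here, with CpG dinucleotides in capitals, for the 3 of the lowest genes in RNA whose windows lost the most H3K27ac reads and that were in that table: Atoh8 (chr6:72235528-72235827, minus strand), Zfp637 (chr6:117840931-117841230, plus strand) and Rgs4 (chr1:169747593-169747892, minus strand).
Atoh8: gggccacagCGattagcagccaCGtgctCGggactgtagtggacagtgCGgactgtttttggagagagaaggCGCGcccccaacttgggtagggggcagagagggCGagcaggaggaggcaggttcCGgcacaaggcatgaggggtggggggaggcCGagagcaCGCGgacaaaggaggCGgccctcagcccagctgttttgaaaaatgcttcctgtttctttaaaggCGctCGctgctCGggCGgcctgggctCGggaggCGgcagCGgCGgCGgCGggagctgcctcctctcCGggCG
Zfp637: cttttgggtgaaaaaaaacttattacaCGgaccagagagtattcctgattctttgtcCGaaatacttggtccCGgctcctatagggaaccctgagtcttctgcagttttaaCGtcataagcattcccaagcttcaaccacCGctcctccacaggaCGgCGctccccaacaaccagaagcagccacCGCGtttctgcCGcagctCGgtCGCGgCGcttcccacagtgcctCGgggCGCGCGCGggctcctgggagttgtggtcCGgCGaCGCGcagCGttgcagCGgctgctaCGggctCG
Rgs4: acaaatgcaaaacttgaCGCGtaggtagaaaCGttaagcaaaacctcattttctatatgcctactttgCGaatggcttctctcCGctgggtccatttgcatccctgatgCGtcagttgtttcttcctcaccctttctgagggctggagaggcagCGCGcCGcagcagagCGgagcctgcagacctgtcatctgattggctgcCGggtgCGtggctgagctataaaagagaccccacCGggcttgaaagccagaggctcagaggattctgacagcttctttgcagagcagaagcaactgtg

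The 3 promoters hold 24, 27 and 13 CpGs. Over the 485 matched losing promoters the median observed over expected CpG ratio was 0.583, against 0.815 in 6519 other promoters whose windows had at least as many untreated reads as the value below which 25% of losing windows lay. It was 0.613 in all 14198 other matched promoters and 0.389 in all promoters in the table. Motifs were searched on both strands. The AP-1 site TGANTCA was in 6.60% of losing, 4.11% of these other promoters and 7.93% of all 27025 promoters in the table. The cyclic AMP response site TGACGTCA was in 0.619% of losing, 3.88% of these other promoters and 1.88% of all promoters. With 485 losing promoters, the first of these shares rests on few promoters. The CCAAT box was in 34.8% of losing, 39.3% of these other and 37.9% of all promoters. For the TATA box TATAAA the shares were 6.60%, 5.86% and 14.2% in the same order. For the TEAD factor site GGAATG they were 13.6%, 10.9% and 14.6%. These are matches of letters in a window, not bound sites, and the windows of the deposited table may start at other positions than those of RefSeq.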

How the data were processed

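The samples number 15, in 7 groups. The submitters' processing notes name TopHat, Bowtie 0.12.9, DESeq2, MACS2 and the build mm9, without saying what each was used for. The authors deposited integer read counts per gene for each RNA library and, per the file headers, read counts per peak or promoter window for merged conditions and input. They also deposited log2 enrichment values, which were recomputed from the reads with 16 added to the sample and to the scaled input. The peak tables use the untreated input scale for both conditions, so the difference of the deposited log2 values equals the read ratio. The authors' deposited peak score served an alternative only. The DMSO columns were read as irradiated, since per the labels only irradiated cells are described with DMSO medium, and 8 columns of per-condition values were not used.

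The members, gene lists and rules were chosen with earlier results of these data known. Reads of all FAIRE peaks that overlap an H3K27ac peak were summed. Peak lengths are as deposited, and coordinates are 1-based mm9 except for the RefSeq promoters. Named peaks were the 5 with the most untreated reads, the 5 with the lowest ratio, the 3 with the lowest and the 3 with the highest FAIRE ratio at 100 or more FAIRE reads, and the 3 runs with the most members. Named genes were the 10 lowest and 10 highest called genes at a mean of 5 CPM or more without overlap, the 3 windows that lost the most reads, and up to 3 genes of each list with 3 or more losing windows. A planned link from peaks to genes by overlap could not be made, because the promoter tables hold no coordinates and no mm9 annotation was used here. Windows that meet the same ratio replaced it after the data were seen.

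RNA counts were tested in R 4.3.3 with edgeR 4.0.16 (filterByExpr, TMM, quasi-likelihood F test, Benjamini-Hochberg over 14925 genes). CPM used TMM-scaled library sizes. DESeq2 1.42.0 was an alternative. Peaks and windows were analysed with pandas 2.3.3, numpy 2.4.6 and scipy 1.17.1 under Python 3.11.15, and matplotlib 3.10.9 drew the figures. Shares have 95% Wilson intervals, medians binomial intervals over peaks, and read ratios exact conditional intervals. The scripts were tested on simulated data.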

Additional observations from a re-analysis of the deposited data

How the results depend on the processing

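The number of losing peaks was 5923 with 1 read added in place of 16 and 4333 scaled for depth. It was 1465 and 8888 at thresholds of −1.5 and −0.58, 2246 with an overlap of 50% of the shorter peak and 1362 in the upper 50% of open peaks by score. In this order, leaving out depth scaling, the median length was 675, 846, 778.5, 1078 and 1133.5 bp. The median untreated H3K27ac was 241, 359, 271, 281 and 503 reads per kb, the median FAIRE ratio −1.37, −1.13, −0.79, −0.86 and −1, and the share with a losing nearest open peak 42.1%, 32.6%, 47.9%, 25.6% and 26.1%. With at least 64 H3K27ac reads, length was 843 bp and untreated H3K27ac 316 reads per kb. The FAIRE ratio was −0.76 scaled for depth, −0.58 with the median of all FAIRE peaks set to 0 and −0.89 with 1 peak per shared FAIRE site. The neighbour share was 43.0% for pairs within 12.5 kb and 31.2% without shared FAIRE peaks. Both settings on shared FAIRE sites, and all those on promoter windows, were added after the data were seen. In each setting compared, the FAIRE ratio of losing peaks was below that of the other open peaks, by 0.36 (threshold −0.58) to 0.69 (1 read added), and the neighbour share was above that of the others.

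The 741 losing promoter windows became 3464 with 1 read added, and 134 and 2613 at thresholds of −1.5 and −0.58. With 1 read added they gave 94 higher genes. At those thresholds they gave 26 and 351 lower and 6 and 167 higher genes, with a median of −0.079 at −1.5. With library totals alone 174 were lower and 31 higher at a median of −0.25, against −0.24 for all tested genes, and without a low-count filter 28 were higher. Leaving out 1 library gave 80 to 148 lower and 20 to 85 higher genes, at medians of −0.049 to 0.16, against −0.07 to 0.19 for all tested genes. Deviation correlations of same-numbered libraries were 0.15, −0.58 and 0.50. With 3 libraries per group they do not settle whether replicate numbers pair the libraries. The replicate block gave 127 lower and 66 higher genes at a median of −0.03. Over all tested genes it gave 2067 lower and 1276 higher, against 1854 and 1149 without it. Of 285 alternative values for 26 named genes 276 kept direction and side of the threshold. Most of the 26 were chosen as the lowest or highest called genes without overlap, so their stability is in part built in. Other list genes are not in this count. Ltbp3, Igf2, Ptch1 and Lmod1 lost their calls in 4, 3, 3 and 1 of 11 alternatives. Wnt5a, Cdc25b, Efna1 and Sema4c kept theirs in all. Myl9 and Dcn, not called, passed in 2 and 1, and Nfib and Grem1 in none. Scd2 was at −0.035 and Nfic at −0.039 with library totals alone, Nfic was at −0.055 without irradiated replicate 1, and Meox1 was at 0.06 without untreated replicate 3 and 0.10 without irradiated replicate 1. The cause of these changes was not tested. Linking peaks to promoters by overlap, or to the nearest promoter, was intended and not run. The chromatin samples are pooled without replicates, and the added reads make ratios at weak FAIRE sites smaller in size.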
